A study of Homo sapiens with 14 samples.

Results

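The genes described here are the inhibitors of DNA binding ID1, ID2, ID3 and ID4, the bone morphogenetic protein (BMP) ligands BMP2, BMP4 and BMP7, and the BMP inhibitors SMAD6 and BAMBI. They were taken by symbol, they are 9 of the 58219 genes in the count table, and all 9 passed the filter on low counts. They were followed across groups given small interfering RNA (siRNA) pools against 4 transcription factors in an ovarian cancer cell line. Knockdown of MECOM raised 7 of the 9, where 16.5% of all tested genes were called higher. ID2 was 2.64-fold, ID3 2.33-fold and BMP4 2.08-fold above the controls. Knockdown of SOX17 lowered 6 of the 9, where 25.5% of all tested genes were called lower. BMP4 was 2.63-fold, ID2 2.57-fold, SMAD6 1.89-fold and ID1 1.89-fold below the controls. The calls of ID4 and BAMBI in siMECOM and of ID3 and BMP7 in siSOX17 were lost in some alternative fits. BAMBI was higher in siPAX8, siSOX17 and, most of all, siDual. BMP7 was lowest in the 2 groups that received the PAX8 pool.

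BMPs are secreted ligands of the transforming growth factor beta family. They bind paired type I and type II serine/threonine kinase receptors, which phosphorylate SMAD1, SMAD5 and SMAD9, and these enter the nucleus with SMAD4. The ID genes are among the best known direct targets of these SMADs. ID proteins carry a helix-loop-helix domain without a basic DNA-binding region, so they bind E proteins such as TCF3 and TCF12 and keep them from DNA. SMAD6, an inhibitory SMAD, and BAMBI, a membrane pseudoreceptor without a kinase domain, are also induced by the pathway and dampen it. BMP ligands and ID genes are expressed in the ovarian epithelium and in ovarian cancer cells.

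All libraries came from OVCAR4, an established human line of high-grade serous ovarian cancer, so every value describes 1 line. The title of the series speaks of predicting master transcription factors in cancers. The siRNA pools used here are directed against 4 transcription factors. The cells of every group received 120 nM of siRNA in reverse transfection and were harvested for total RNA after 72 hours. siNT1 received the Dharmacon ON-TARGETplus non-targeting control pool and siNT2 another non-targeting pool, and these 4 libraries are the controls throughout. siPAX8, siSOX17, siMECOM and siWT1 received a pool against the named gene, and siDual the PAX8 pool plus the SOX17 pool. Each of the 7 groups has 2 libraries. Separate transfections for the libraries of a group are not stated, so a p-value reflects the spread between these libraries alone, which may be technical.

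Total counts were 40832825 to 49059114 in the 4 control libraries and 41107918 to 49803860 in the 10 knockdown libraries. PAX8 fell from 204.8 CPM (read counts scaled to a common library size) in the controls to 35.5 in siPAX8 and 51.7 in siDual. SOX17 fell from 110.6 to 14.4 CPM in siSOX17 and 16.8 in siDual, and MECOM from 129.9 to 12.6 CPM in siMECOM. The targeted transcripts also moved in other groups: SOX17 stood at 229.2 CPM in siMECOM, MECOM at 44.6 in siSOX17 and 49.3 in siDual, and PAX8 at 114.9 in siWT1. WT1 was near the floor already in the controls (0.394 CPM, 75 counts in 4 libraries) and had 1 count in siWT1. The siWT1 values are therefore those of the pool, and the part of WT1 loss in them was not tested. The 6 epithelial markers and PAX8, SOX17, MECOM, MUC16 and EMX2 were present in every library, while MSLN did not exceed 1.00 TPM (a scale that also corrects for transcript length). Of the haematopoietic markers none exceeded 0.554 TPM in any library, and of the endothelial markers CDH5 was the highest at 0.602 to 4.43 TPM. The summed level of 6 stromal markers was mostly COL1A1 (5.52 to 15.1 TPM). It was 9.45 to 11.4 TPM in the controls, 15.0 to 16.2 in siPAX8 and siDual, 12.2 to 13.2 in siSOX17, 6.26 to 6.98 in siMECOM and 6.92 to 7.26 in siWT1, and its part in the results was not tested. The share of counts on ribosomal RNA genes and their pseudogenes, mitochondrial ones included, was 0.612 to 0.712% in the controls, 1.36 to 1.58% in siPAX8, siSOX17 and siDual, 0.827 to 1.07% in siMECOM and 0.660 to 0.877% in siWT1, and its part was not tested either. The share on the mitochondrial chromosome was 5.34 to 6.13% in the controls and at least 7.91% in every knockdown library. Without the genes of that chromosome every member called against the controls kept its call and direction, and ID4 in siSOX17 was called in addition (-0.17, adjusted p = 0.0411).

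The upstream sequences of 4 members are shown because their genes moved in different directions: ID1 and SMAD6 both fell in siSOX17 and rose in siMECOM, BAMBI rose in both, and ID4 changed least. Each runs 5′ to 3′ towards the RefSeq transcription start (build GRCh38.p14), from 250 bases before it to the first annotated exon base. Capitals mark GGCGCC and CAGAC, letters bound by SMADs, and AACAAT, letters bound by SOX factors, on either strand.
ID1, chr20:31605039-31605282, plus strand: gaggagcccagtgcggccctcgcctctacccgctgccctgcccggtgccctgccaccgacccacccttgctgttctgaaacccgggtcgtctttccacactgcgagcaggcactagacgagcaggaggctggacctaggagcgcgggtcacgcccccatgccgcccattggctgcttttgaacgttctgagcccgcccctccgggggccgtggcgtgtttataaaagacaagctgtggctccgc
SMAD6, chr15:66701986-66702227, plus strand: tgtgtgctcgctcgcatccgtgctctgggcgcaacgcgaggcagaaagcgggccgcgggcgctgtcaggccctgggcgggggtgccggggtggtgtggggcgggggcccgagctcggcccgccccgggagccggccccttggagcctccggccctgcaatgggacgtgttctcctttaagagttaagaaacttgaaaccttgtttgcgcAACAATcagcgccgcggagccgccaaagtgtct
BAMBI, chr10:28677271-28677341, plus strand: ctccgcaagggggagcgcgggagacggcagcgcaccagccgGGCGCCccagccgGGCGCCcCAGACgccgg
ID4, chr6:19837120-19837369, plus strand: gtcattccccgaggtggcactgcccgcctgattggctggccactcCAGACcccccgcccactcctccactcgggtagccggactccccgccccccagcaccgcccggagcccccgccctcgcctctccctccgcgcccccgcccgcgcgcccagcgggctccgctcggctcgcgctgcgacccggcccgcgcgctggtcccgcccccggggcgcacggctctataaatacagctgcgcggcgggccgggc

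None of these motifs lay in the 250 bases before ID1, although ID1 responded in all 5 knockdowns. BAMBI had 3 copies of GGCGCC and 2 of CAGAC (1 of them as GTCTG) in its 250 bases, of which those before the first exon are printed. G and C make up 81.2% of this window, where the median over all genes is 58.0%. The shares of all genes given below do not allow for this. SMAD6 had 1 AACAAT and ID4 had 1 CAGAC. ID3, whose window lies within its first exon and is not printed, had 1 CAGAC, and the ID2 and ID4 windows each had 1 CAGCTG, an E-box (CANNTG). Of the 27305 genes with such a window, 16.1% held GGCGCC, 37.8% CAGAC, 9.19% AACAAT and 62.2% CANNTG. Windows were found for 7 of the 9 members, and BMP4 has 3 of them. The BMP4 windows held 1 GGCGCC, 2 CAGAC (as GTCTG) and 1 CACGTG. A match of letters is a description and does not show binding, and no match says only that these letters are not in this window.

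In the control libraries the members spanned a wide range of abundance. Per unit of transcript length, ID1 was the most abundant at 654.9 ± 39.9 TPM (SD, n = 4). ID4 followed at 130.4 ± 4.36 TPM, ID3 at 86.4 ± 1.80, BMP7 at 83.2 (SD 13.97) and ID2 at 50.7 ± 4.35. The inhibitors and BMP4 were lower, with SMAD6 at 14.9 ± 0.696 TPM, BMP4 at 13.6 ± 0.421 and BAMBI at 12.6 ± 0.723. BMP2 was barely detected at 0.226 ± 0.0427 TPM. Among the ligands, then, BMP7 was the main transcript in these cells before knockdown. The 2 control pools differed in 0 of 9 members at the threshold by edgeR, where 0.300% of all tested genes were called. BMP7 was the 1 member with an unadjusted p under 0.05, and DESeq2 called it.

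**Figure D1:**
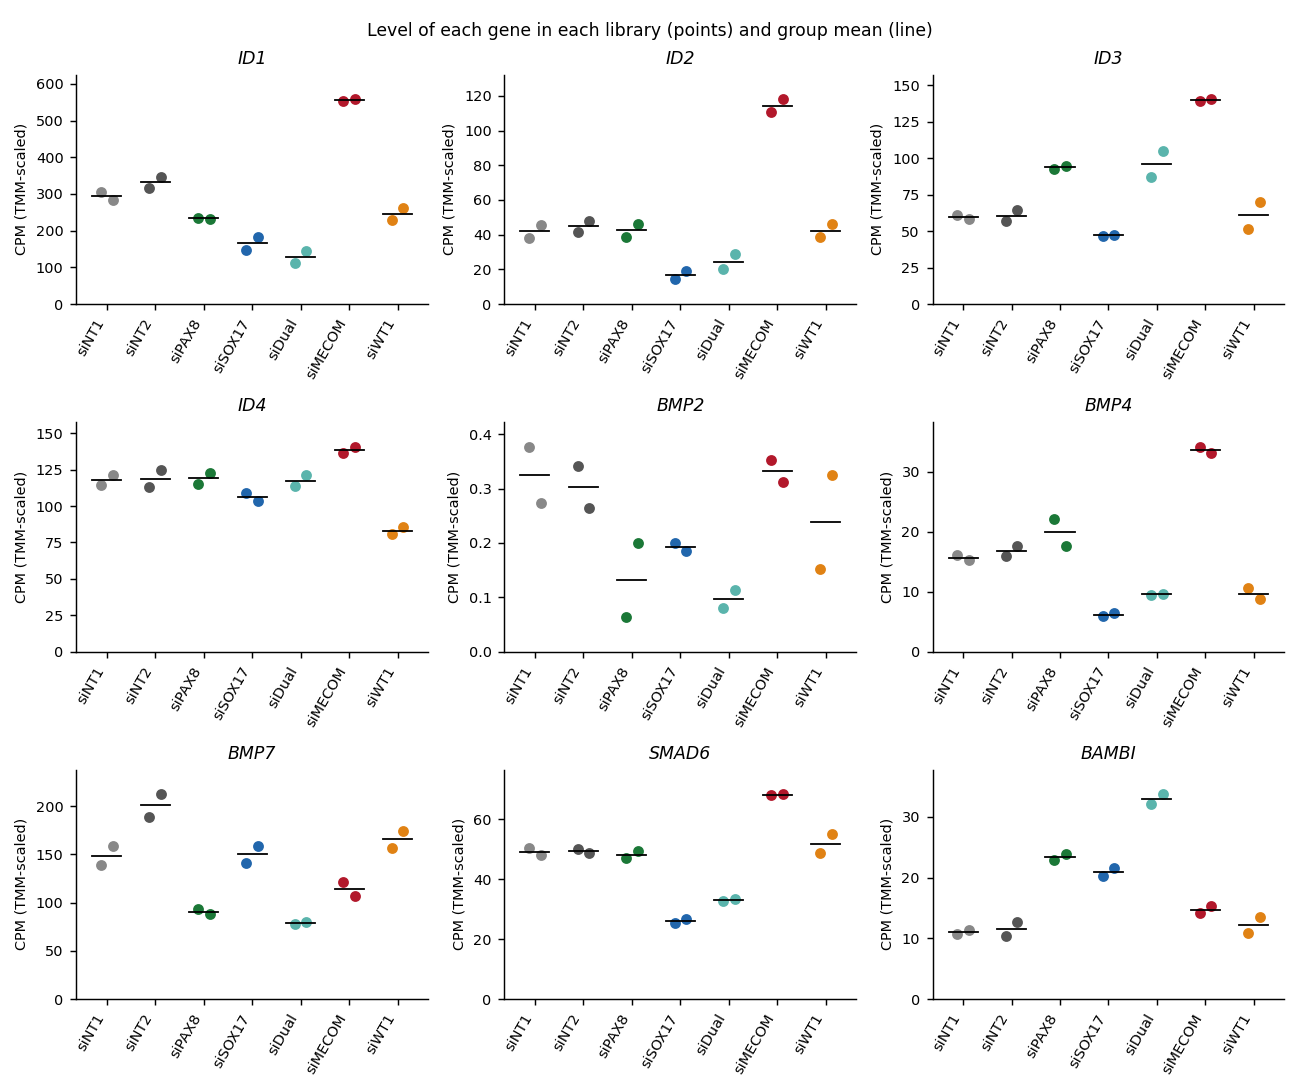
Level of each of the 9 genes in each of the 14 libraries, in CPM on TMM-scaled library sizes (vertical axis, from 0), by siRNA group (horizontal axis); points are libraries and lines are group means. The siMECOM libraries are the highest for ID1, ID2, ID3, ID4, BMP4 and SMAD6, the siSOX17 libraries are low for ID2, BMP4 and SMAD6, and BAMBI peaks in siDual.

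Against the controls, 8 of the 9 members were called in siMECOM (adjusted p under 0.05; quasi-likelihood test of edgeR, Benjamini-Hochberg), where 32.6% of all tested genes were. Of these, 7 were higher (16.5% of all genes) and 1 lower (16.1%), and the median log2 fold change was 0.47 over the members and 0.01 over all genes. In siSOX17 7 members were called, where 52.6% of all genes were, 1 of them higher (27.2%) and 6 lower (25.5%), with a median of -0.69 over the members and -0.01 over all genes. In siDual 8 were called, where 56.2% of all genes were, 2 higher (28.9%) and 6 lower (27.3%), with a median of -0.77. The siPAX8 group had 6 called members, where 52.2% of all genes were, with 3 higher (26.9%) and 3 lower (25.4%), which is near the share of all genes. In siWT1 3 members were called, where 37.5% of all genes were, 0 higher (17.7%) and 3 lower (19.8%), again near the background. By edgeR at an unadjusted p under 0.05, and by DESeq2, the number higher was also 0. In a bulk sample a change in the RNA of each cell and a change in the share of cells of 1 kind cannot be told apart. The comparisons with the controls share the same 4 control libraries.

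**Figure D2:**
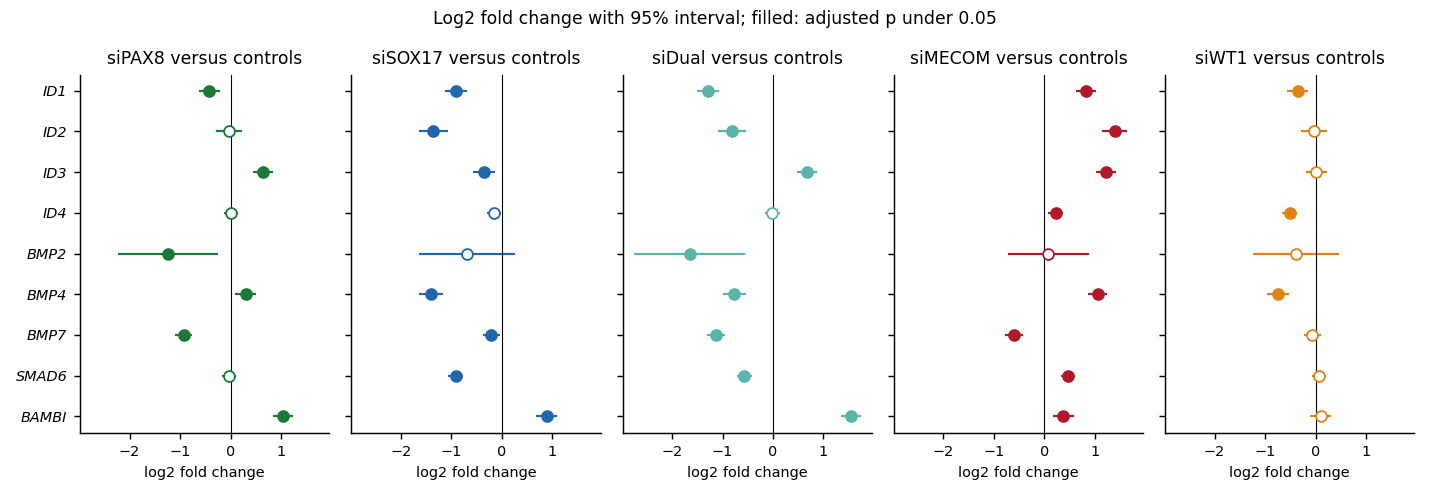
Log2 fold change of each member against the 4 control libraries (horizontal axis) in each knockdown, with its 95% interval; filled points have an adjusted p under 0.05. All 4 ID genes lie to the right of 0 in siMECOM, ID1, ID2 and ID3 to the left in siSOX17, and BAMBI to the right in siPAX8, siSOX17, siDual and siMECOM.

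ID1 (ENSG00000125968.8, chr20:31605283-31606515, plus strand, hg38), the most abundant ID gene, stood at 306, 283, 316 and 347 CPM in the 4 control libraries. It was 552 and 558 CPM in siMECOM, 235 and 232 in siPAX8, and 229 and 261 in siWT1. The siSOX17 libraries held 148 and 183 CPM and the siDual libraries 111 and 146. Every knockdown library lay outside the control range, above it in siMECOM and below it in the other 4 groups. ID1 changed on the log2 scale by 0.83 ± 0.10 (SE; adjusted p = 1.92e-06) in siMECOM, -0.42 ± 0.10 (0.00166) in siPAX8, -0.35 ± 0.10 (0.00925) in siWT1, -0.91 ± 0.10 (4.38e-07) in siSOX17 and -1.29 ± 0.11 (4.41e-09) in siDual. From high to low the groups ran siMECOM, controls, siWT1, siPAX8, siSOX17 and siDual, and only siWT1 and siPAX8 were neighbours without a called difference (0.07, 95% interval -0.17 to 0.31). The siWT1 decrease lost its call without siWT1 replicate 1 (-0.26, adjusted p = 0.144) and against siNT1 alone (-0.27, 0.0845). The step from siSOX17 to siDual was -0.37 ± 0.12 (adjusted p = 0.0343) and became -0.21 without siSOX17 replicate 2 and -0.19 without siDual replicate 1.

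ID2 (ENSG00000115738.9, chr2:8678845-8684453, plus strand) had the widest range of the ID genes. Its control libraries held 38.2, 45.7, 41.8 and 47.9 CPM. The siMECOM libraries reached 111 and 118 CPM, while the siSOX17 libraries dropped to 14.7 and 19.1 and the siDual libraries to 20.3 and 28.8. These 3 groups did not overlap the controls. The siPAX8 libraries (38.7 and 46.3 CPM) and the siWT1 libraries (38.7 and 46.1) lay inside the control range. ID2 rose in siMECOM (log2 fold change 1.40 ± 0.12, adjusted p = 2.93e-08) and fell in siSOX17 (-1.36 ± 0.14, 1.01e-07) and siDual (-0.82 ± 0.13, 2.76e-05). In siPAX8 its log2 fold change was -0.03 (95% interval -0.29 to 0.23) and in siWT1 also -0.03 (-0.29 to 0.23). It was the member that differed most between siMECOM and siSOX17, by 2.76 ± 0.15 on the log2 scale (adjusted p = 4.49e-11). The antisense gene ID2-AS1 overlaps ID2 on the opposite strand, and since the strand used in counting is not given in the sources used here, their reads cannot be told apart. ID2-AS1 had 53 and 100 counts in siMECOM against 19 to 29 in the controls, and its own log2 fold change was 1.65 ± 0.35 (adjusted p = 0.00114).

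ID3 (ENSG00000117318.8, chr1:23557918-23559794, minus strand) differed from ID1 and ID2 in the groups that received the PAX8 pool. Control libraries held 61.4, 58.2, 56.9 and 64.3 CPM, siPAX8 libraries 92.9 and 94.8, and siDual libraries 87.0 and 105. The siMECOM libraries stood at 140 and 141 CPM, the siSOX17 libraries at 46.7 and 47.6 and the siWT1 libraries at 51.4 and 70.2. All but the siWT1 group lay wholly outside the control range. ID3 rose in siMECOM (1.22 ± 0.10, adjusted p = 1.03e-08), siPAX8 (0.64 ± 0.10, 1.59e-05) and siDual (0.68 ± 0.10, 7.29e-06) and fell in siSOX17 (-0.35 ± 0.10, 0.0071). Its siWT1 value was 0.01 (95% interval -0.19 to 0.22). siDual and siPAX8 were neighbours in the order of levels and differed by 0.03 (-0.20 to 0.27). So in siDual ID3 was above the controls in CPM while ID1 and ID2 were below them. As TPM, without TMM scaling, the siDual libraries held 88.4 and 109.6 for ID3, against 84.5 to 88.2 in the controls. The size of the ID3 increase in siDual therefore depends on the scaling. The siSOX17 decrease was -0.34 (adjusted p = 0.055) without siSOX17 replicate 1.

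ID4 (ENSG00000172201.11, chr6:19837386-19840684, plus strand), the second most abundant ID gene in the controls, moved least. Its control libraries held 115, 122, 113 and 125 CPM. The siPAX8 (115 and 123) and siDual (114 and 121) libraries lay within that range, and the siSOX17 pair (109 and 103) just below it. The siMECOM libraries lay above it at 136 and 141 CPM and the siWT1 libraries below it at 80.6 and 85.7. As TPM, without TMM scaling, ID4 means were 130.4 in the controls, 102.5 in siPAX8, 92.7 in siDual and 87.7 in siSOX17. They were 140.9 in siMECOM and 86.9 in siWT1. ID4 was the only ID gene with its largest change in siWT1, where it fell by 0.51 on the log2 scale (SE 0.07, adjusted p = 1.14e-05). ID4 in siWT1 was also 0.35 ± 0.08 below siSOX17 (adjusted p = 0.00084), its neighbour in the order. The siMECOM increase was 0.23 ± 0.07 (adjusted p = 0.0148) and lost its call in 5 alternative fits, with adjusted p values of 0.0579 to 0.146. The siSOX17 value was -0.16 ± 0.07 (adjusted p = 0.0609). The antisense gene AL022068.1 lies opposite ID4 and moved in siMECOM (0.85 ± 0.17, adjusted p = 0.000793) and siWT1 (-0.62 ± 0.20, 0.0189) in the same directions as ID4, and also rose in siPAX8 (0.78 ± 0.17, 0.000844), where ID4 did not.

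BMP4 (ENSG00000125378.15, chr14:53949736-53958761, minus strand), a ligand of the BMP2/4 subgroup, moved in the same direction as ID2 in siMECOM, siSOX17 and siDual. In siWT1 BMP4 was called lower and ID2 was not called. The control libraries held 16.1, 15.3, 16.0 and 17.6 CPM. In siMECOM BMP4 stood at 34.2 and 33.2 CPM and in siPAX8 at 22.2 and 17.7. It was 5.94 and 6.39 CPM in siSOX17, 9.47 and 9.61 in siDual and 10.6 and 8.71 in siWT1. All 5 groups lay outside the control range, with 1 siPAX8 library only just above it. BMP4 rose in siMECOM (1.06 ± 0.09, adjusted p = 6.36e-08) and fell in siSOX17 (-1.40 ± 0.11, 5.64e-09), siDual (-0.77 ± 0.11, 5.15e-06) and siWT1 (-0.75 ± 0.10, 1.49e-05). The increase in siPAX8 (0.30 ± 0.10, adjusted p = 0.0148) rested on replicate 1 and was 0.12 (0.438) without it, and it was 0.25 (0.0804) against siNT2 alone. Between siDual and siWT1 the BMP4 difference was -0.02 (95% interval -0.27 to 0.24).

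BMP4 had the largest decrease of the members in siWT1. The 3′ UTRs of the members were searched for CCACAC, a hexamer seen earlier in these data among genes lower in that group. The choice of this hexamer is therefore not independent of the values. BMP4 had 3 copies within a 3′ UTR of 296 bases, shown here with the hexamer in capitals.
BMP4 3' UTR, from base 25: cagatatacacaCCACACacacacaccaca
BMP4 3' UTR, from base 47: acaccacatacaCCACACacacacgttccc
BMP4 3' UTR, from base 75: ccatccactcacCCACACactacacagact

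The other 8 members had 0 copies, including ID1 and ID4, which also fell in siWT1. At least 1 copy was present in 9.87% of the 1561 genes with a 3′ UTR of like length to that of BMP4 and in 32.5% of all 18769. Any part of these sites in the siWT1 value was not tested.

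BMP7 (ENSG00000101144.12, chr20:57168748-57266629, minus strand), the ligand with the highest level in the controls, did not follow BMP4. The siNT1 libraries held 139 and 159 CPM and the siNT2 libraries 189 and 213, so the 2 control pools did not overlap (siNT1 minus siNT2 -0.43 ± 0.09, adjusted p = 0.0578). The siPAX8 libraries held 93.0 and 88.3 CPM, the siDual libraries 77.9 and 79.7 and the siMECOM libraries 121 and 107, all below both control pools. The siSOX17 (142 and 159) and siWT1 (157 and 175) libraries lay among the controls in CPM. As TPM, without TMM scaling, the siSOX17 libraries held 50.5 and 56.7, below the 66.3 to 96.1 of the controls. The siWT1 libraries, at 70.2 and 79.9 TPM, still lay among them. BMP7 fell in siPAX8 (-0.93 ± 0.08, adjusted p = 2.04e-08), siDual (-1.13 ± 0.09, 1.33e-09) and siMECOM (-0.60 ± 0.08, 1.51e-05). Against siNT1 alone these 3 decreases were smaller and against siNT2 alone larger. The siSOX17 call (-0.21 ± 0.08, adjusted p = 0.0413) was 0.01 (0.938) against siNT1 alone and -0.42 against siNT2 alone, and it was lost in 7 of 23 alternative fits. BMP7 was the only member below the controls in siMECOM, and it differed there from siSOX17 by -0.40 ± 0.09 (adjusted p = 0.00168). BMP7-AS1, on the opposite strand, had 1 count in all libraries together.

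BMP2 (ENSG00000125845.6, chr20:6767664-6780280, plus strand) was too low for a close comparison. Its raw counts were 16, 14, 17 and 12 in the control libraries, 3 and 9 in siPAX8, 8 and 7 in siSOX17, 3 and 5 in siDual, 16 and 16 in siMECOM, and 8 and 17 in siWT1. As summed counts the siDual level was 31.2% of the control level (exact 95% counting interval 12.9 to 65.7%) and the siPAX8 level 41.8% (20.4 to 78.6%). The other 3 intervals included the control level, with 61.7% in siSOX17, 76.5% in siWT1 and 105.9% in siMECOM. These intervals cover counting error only. BMP2 was called lower in siDual (-1.66 ± 0.53, adjusted p = 0.0116) and siPAX8 (-1.24 ± 0.48, 0.0351). The siDual call was lost without either siDual library, at -1.46 without replicate 1 and -1.94 without replicate 2. The siPAX8 value was -0.64 without siPAX8 replicate 1, and its call was kept in 16 of 22 alternative fits. Among the fits that lost it were DESeq2 (adjusted p = 0.114) and edgeR against siNT1 alone (0.0548) or siNT2 alone (0.0746). No neighbours in the order of BMP2 levels differed at the threshold.

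SMAD6 (ENSG00000137834.14, chr15:66702228-66782848, plus strand), which blocks the receptor-activated SMADs, varied little between replicates. Control libraries held 50.2, 48.0, 50.1 and 48.8 CPM. The siSOX17 libraries held 25.5 and 26.7 CPM, the siDual libraries 32.8 and 33.4 and the siMECOM libraries 67.9 and 68.3, all outside the control range. The siPAX8 (46.9 and 49.3) and siWT1 (48.6 and 55.0) libraries overlapped it. SMAD6 fell in siSOX17 (-0.92 ± 0.07, adjusted p = 3.8e-09) and siDual (-0.57 ± 0.07, 1.11e-06) and rose in siMECOM (0.47 ± 0.07, 2.27e-05). Its values in siPAX8 (-0.04, 95% interval -0.18 to 0.11) and siWT1 (0.07, -0.07 to 0.21) were near 0. Thus the 3 groups that moved SMAD6 are the same 3 that moved ID2, in the same directions. AC013564.1, a gene within a SMAD6 intron on the same strand, had 0 counts.

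BAMBI (ENSG00000095739.10, chr10:28677342-28682939, plus strand) had a pattern of its own among the members. Its control libraries held 10.8, 11.4, 10.4 and 12.7 CPM. The siPAX8 libraries held 22.9 and 23.8 CPM, the siSOX17 libraries 20.2 and 21.6 and the siDual libraries 32.1 and 33.8, while siMECOM held 14.1 and 15.3. All 8 of these libraries were above the controls, and only the siWT1 libraries (10.9 and 13.5) overlapped them. BAMBI rose in siPAX8 (1.05 ± 0.09, adjusted p = 1.97e-08), siSOX17 (0.89 ± 0.10, 2.48e-07), siDual (1.54 ± 0.09, 5.64e-11) and siMECOM (0.38 ± 0.10, 0.00558). The siMECOM call was lost without siMECOM replicate 2 (0.32, adjusted p = 0.0959). The difference of siPAX8 from siSOX17 in BAMBI was 0.16 (95% interval -0.07 to 0.39), and siDual was above both. The summed level of the 6 epithelial markers was also above the controls in siPAX8, siSOX17 and siDual. It was 1825 to 2017 TPM in the controls, 2594 to 3176 in siPAX8, 4255 to 4370 in siSOX17 and 5693 to 6574 in siDual. The sum was higher in siSOX17 than in siPAX8. Over all libraries it was mostly keratins (KRT8 425 to 2509 TPM, KRT18 565 to 2983, KRT19 229 to 797), with EPCAM at 159 to 247. The part of this sum in the BAMBI result was not tested. In siMECOM it was 1840 to 2011 TPM, inside the control range.

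Several pairs of pools were compared directly. siMECOM and siSOX17 differed in 8 of 9 members (48.4% of all genes), with ID1, ID2, ID3, ID4, BMP4 and SMAD6 higher in siMECOM and BMP7 and BAMBI lower. BMP4 differed by 2.45 ± 0.12 and SMAD6 by 1.38 ± 0.08 on the log2 scale. siMECOM and siPAX8 differed in all 9 (47.1% of all genes), with BAMBI alone lower in siMECOM, though the BMP2 call was lost in 14 alternative fits, the ID4 call in 5 and the BMP7 call in 2. siPAX8 and siSOX17 differed in 6 (37.3%): ID1, ID2, ID3, BMP4 and SMAD6 were higher in siPAX8, by 0.49 to 1.70, and BMP7 lower, by -0.73 ± 0.09. The ID1 difference became 0.35 (adjusted p = 0.0544) without siSOX17 replicate 1. The siWT1 group differed from siPAX8 in 5 members (57.4%), from siSOX17 in 7 (57.8%) and from siMECOM in 7 (45.2%). Beside these backgrounds the first count is no more than the share of all genes, and ID1 and ID2 were not called between siWT1 and siPAX8. ID3 was 0.37 higher in siWT1 than in siSOX17 (adjusted p = 0.0112), but 0.12 (0.374) without siWT1 replicate 2 and 0.35 (0.0583) without siSOX17 replicate 1. siDual differed from siMECOM in all 9 members (50.2% of all genes), with BAMBI alone higher in siDual, and from siWT1 in 7 (60.8%). Of the siDual and siMECOM differences, that of BMP2 lost its call with DESeq2 (adjusted p = 0.0627) and without siDual replicate 1 (0.102), siDual replicate 2 (0.0606) or siMECOM replicate 1 (0.0686). That of ID4 lost it without siDual replicate 1 (0.139) or siMECOM replicate 2 (0.0987).

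The siDual group shows how the members stood when both pools were given. Against siPAX8 alone 5 members were called (19.6% of all genes): ID1, ID2, BMP4 and SMAD6 were lower in siDual, by -0.54 to -1.07, and BAMBI higher by 0.49 ± 0.11. Against siSOX17 alone 7 were called (15.7% of all genes): ID2, ID3, BMP4, SMAD6 and BAMBI were higher in siDual, and ID1 and BMP7 lower. ID2, BMP4 and SMAD6 thus lay between the 2 single knockdowns, ID1 and BAMBI lay beyond both, and ID3 and BMP7 lay with siPAX8. For ID2 the step from siSOX17 to siDual (0.54, adjusted p = 0.0209) was 0.26 (0.405) without siDual replicate 2 and 0.36 (0.236) without siSOX17 replicate 1. For SMAD6 it (0.34, 0.00661) was 0.33 (0.0593) and 0.30 (0.0709) without the same libraries. The sum of the single log2 responses was compared with the siDual response. At the threshold 2 of the 9 members departed from it, which is near the 25.1% of all genes that did. SMAD6 stood 0.38 ± 0.11 above the sum (adjusted p = 0.013) and ID2 0.57 ± 0.20 above it (0.041), so both fell less in siDual than the sum of the single changes. The SMAD6 departure was 0.35 (0.0578) without siPAX8 replicate 1 and 0.34 (0.0609) without siSOX17 replicate 1. The ID2 departure was 0.30 (0.333) without siDual replicate 2 and 0.39 (0.219) without siSOX17 replicate 1. It also lost its call without siPAX8 replicate 1 (0.45, 0.155), siNT1 replicate 2 (0.50, 0.0849) or siNT2 replicate 2 (0.51, 0.0692). ID1 (0.05, 95% interval -0.27 to 0.37) and BMP7 (0.00, -0.26 to 0.26) were near the sum. BAMBI stood at -0.40 ± 0.15 (adjusted p = 0.054) and ID3 at 0.39 ± 0.15 (0.0722). Both lay close to the threshold: BAMBI was called in 10 of 23 alternative fits, among them DESeq2 (0.0476) and the fit without a filter (0.0484), and ID3 in 6, among them the fits without a filter (0.022) and with only the groups compared (0.0301). The siRNA dose label of 120 nM is the same for all groups, so the dose of each pool within siDual is not known from it, and PAX8 was left at 51.7 CPM in siDual against 35.5 in siPAX8.

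**Figure D3:**
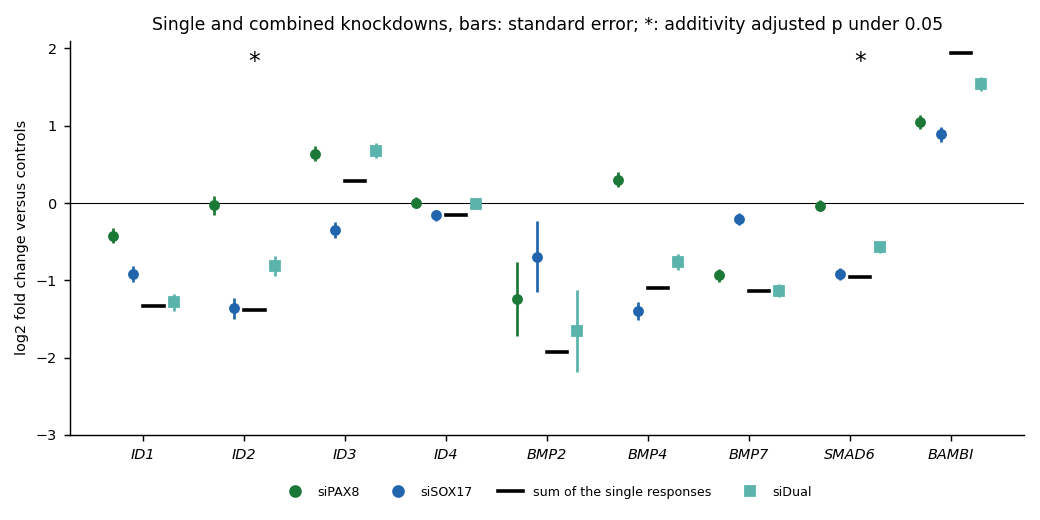
Log2 fold change against the controls (vertical axis) of each member in siPAX8 and siSOX17 (circles) and siDual (squares), with standard errors as bars; the black dash is the sum of the 2 single responses and an asterisk marks an additivity adjusted p under 0.05. ID2 and SMAD6 lie above their sums, and ID1 and BMP7 lie on them.

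The rest of the pathway was followed in 62 other genes, of which 47 passed the filter on low counts. In siMECOM 16 of the 47 were higher and 7 lower, in siSOX17 12 and 20, in siDual 14 and 18, in siPAX8 19 and 12, and in siWT1 8 and 13. Their median log2 fold changes were 0.06 in siMECOM, -0.24 in siSOX17, -0.13 in siDual, 0.10 in siPAX8 and -0.06 in siWT1, where the medians of all genes were within 0.01 of 0. The shares of all genes called higher and lower, given above for each knockdown (16.5 and 16.1% in siMECOM, 27.2 and 25.5% in siSOX17, 28.9 and 27.3% in siDual, 26.9 and 25.4% in siPAX8, 17.7 and 19.8% in siWT1), are the background of every list count that follows. Several counts are near it, such as the 12 higher in siSOX17, the 14 higher in siDual and the 8 higher in siWT1. Some single genes, such as GREM1, changed by more than any member.

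Among the ligands, BMP6 had the largest increase in siMECOM, from 8.26 ± 0.775 CPM (SD, n = 4) in the controls to 39.4 ± 1.89 (n = 2), a log2 fold change of 2.26 ± 0.08 (adjusted p = 1.2e-13). BMP6 also rose in siWT1 (1.10 ± 0.08) and fell in siPAX8 (-0.53 ± 0.09), siSOX17 (-0.87 ± 0.10) and siDual (-0.62 ± 0.09). BMP6 therefore rose and fell with BMP4 in siMECOM, siSOX17 and siDual, and opposite to it in siWT1. In siPAX8 the signs also differed, but the BMP4 increase there was not firm. It was 0.12 without siPAX8 replicate 1 and 0.25 (adjusted p = 0.0804) against siNT2 alone. In mean TPM, without TMM scaling, BMP4 in siPAX8 was not above the controls. Of the 10 ligand genes outside the members, only BMP6 and BMP8B passed the filter.

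TCF3 and TCF12, the 2 of 3 E protein genes that passed the filter, encode partners that ID proteins bind. TCF3 stood at 190.8 ± 5.82 CPM in the controls, 91.1 in siPAX8, 70.5 in siSOX17, 74.9 in siDual, 137.4 in siMECOM and 157.0 in siWT1. It fell in all 5, by 1.44 (SE 0.08) on the log2 scale in siSOX17 and by 0.28 (SE 0.08) in siWT1. TCF12 fell by 0.93 (SE 0.08) in siSOX17, by 0.53 (SE 0.08) in siDual and by 0.27 (SE 0.08) in siWT1. In siSOX17 ID1, ID2 and ID3 and both of these partners were thus lower together, and in siMECOM TCF3 was lower while all 4 ID genes were higher.

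Among the 10 receptors and co-receptors tested, 5 were higher and 2 lower in siPAX8, 3 and 4 in siSOX17, 4 and 2 in siDual, 2 and 2 in siMECOM, and 2 and 1 in siWT1. The siSOX17 count of higher genes, the siPAX8 and siDual counts of lower genes, and both counts in siMECOM and in siWT1 are near the background. The type II receptor BMPR2 rose in siPAX8 (0.63 ± 0.08), siSOX17 (0.76 ± 0.08), siDual (1.01 ± 0.08) and siMECOM (0.34 ± 0.08) and fell in siWT1 (-0.91 ± 0.08). The type II receptor ACVR2B went the other way in siWT1, from 13.4 ± 1.56 to 39.3 ± 2.44 CPM (1.56 ± 0.11, adjusted p = 2.34e-09). ACVR1, a type I receptor, rose in siPAX8 (0.84 ± 0.09), siSOX17 (0.38 ± 0.10) and siDual (0.62 ± 0.09).

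Of the 6 SMADs and SMURFs of the BMP branch, 3 were higher and 0 lower in siMECOM, 1 and 2 in siSOX17 and in siDual, 2 and 2 in siPAX8, and 1 and 3 in siWT1. Apart from the 3 higher in siMECOM and the 3 lower in siWT1, these counts are near the background. SMAD9, which carries the signal to the nucleus, rose in siMECOM (1.11 ± 0.20, adjusted p = 0.000222). It was called lower in the other 4 knockdowns, from -0.56 ± 0.23 in siSOX17 to -1.49 ± 0.25 in siPAX8. The siSOX17 call lay at the threshold (adjusted p = 0.0498), and the siWT1 value was -0.76 ± 0.23 (0.0127). Alternative fits were examined for the members only, so how firm these calls are is not known. SMAD1 fell in siSOX17 (-0.97 ± 0.11), siDual (-0.73 ± 0.11) and siPAX8 (-0.40 ± 0.11). SMURF2, a ubiquitin ligase that targets SMADs, rose in siPAX8 (0.87 ± 0.07), siSOX17 (0.62 ± 0.07), siDual (0.97 ± 0.07), siWT1 (0.63 ± 0.07) and, less, siMECOM (0.25 ± 0.07, adjusted p = 0.0128), and so in all 5 knockdowns. Of the 5 other intracellular and membrane inhibitors, 3 rose in siPAX8, siSOX17 and siDual each, and 1 rose in siMECOM and siWT1 each. There was 1 that fell in siSOX17 (TOB1, -0.40 ± 0.09), 1 in siDual (SKI, -0.21 ± 0.07) and 1 in siWT1 (SMAD7), and 0 fell in siPAX8 and siMECOM. The counts of 1 are near the background. The inhibitory SMAD7 rose in siPAX8 (0.47 ± 0.08), siSOX17 (0.44 ± 0.08), siDual (0.68 ± 0.08) and siMECOM (0.43 ± 0.08) and fell in siWT1 (-0.63 ± 0.08). SKIL, a SMAD co-repressor, rose in siPAX8 (1.22 ± 0.11), siSOX17 (0.58 ± 0.11) and siDual (1.23 ± 0.11).

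The 13 extracellular antagonists and modulators tested held the largest changes, with 5 higher and 3 lower in siPAX8, 4 and 5 in siSOX17, 5 and 6 in siDual, 4 and 3 in siMECOM, and 1 and 4 in siWT1. The count lower in siPAX8 and the count higher in siSOX17 are near the background. GREM1, which encodes the secreted BMP antagonist gremlin, stood at 1.16 CPM in siSOX17 and 3.87 in siDual. Its control level depended on the pool, at 12.5 CPM in siNT1 and 23.9 in siNT2 (log2 difference -0.93 ± 0.16, adjusted p = 0.0101). GREM1 fell in siSOX17 (-3.90 ± 0.20, adjusted p = 1.08e-11), siDual (-2.16 ± 0.16) and siWT1 (-1.81 ± 0.15), and its decreases in siPAX8 (-0.67 ± 0.14, adjusted p = 0.000545) and siMECOM (-0.42 ± 0.14) were smaller than the difference between the control pools. FSTL3, which binds activins and some BMPs, rose in siPAX8 (1.61 ± 0.09), siSOX17 (1.46 ± 0.09) and siDual (1.96 ± 0.09) and fell in siWT1 (-0.58 ± 0.10, adjusted p = 8.92e-05). CRIM1, a transmembrane protein that binds BMPs, rose in the same 3 groups by 1.42 ± 0.10, 1.11 ± 0.10 and 1.63 ± 0.10, from 195.6 ± 35.2 CPM in the controls to 599.9 ± 22.0 in siDual, and in siMECOM by 0.45 ± 0.10. FSTL3 and CRIM1, like BAMBI, had their highest level in siDual, while in siWT1 FSTL3 fell and BAMBI overlapped the controls.

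Of 9 other BMP target genes tested, 5 rose and 1 fell in siMECOM, 1 rose and 5 fell in siSOX17, 1 and 4 in siDual, 4 and 2 in siPAX8, and 2 and 2 in siWT1. The siWT1 counts and the counts lower in siPAX8 and in siMECOM are near the background. DLX5, a homeobox gene, rose in siMECOM (1.87 ± 0.11, from 4.67 ± 0.545 to 17.1 ± 0.908 CPM), siWT1 (1.67 ± 0.11) and siPAX8 (0.53 ± 0.12, adjusted p = 0.000945) and fell in siSOX17 (-0.56 ± 0.14, 0.00194). DLX2 rose in siPAX8 (0.88 ± 0.16), siSOX17 (1.26 ± 0.16), siDual (1.61 ± 0.15) and siMECOM (1.35 ± 0.15), so it did not fall with the ID genes in siSOX17. GATA2 fell in siSOX17 (-1.13 ± 0.11), siDual (-0.98 ± 0.11) and siPAX8 (-0.51 ± 0.11) and rose in siWT1 (0.44 ± 0.10). DLX3 fell in siPAX8 (-0.95 ± 0.09), siDual (-0.78 ± 0.09), siMECOM (-0.87 ± 0.09) and siWT1 (-0.43 ± 0.08).

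**Figure D4:**
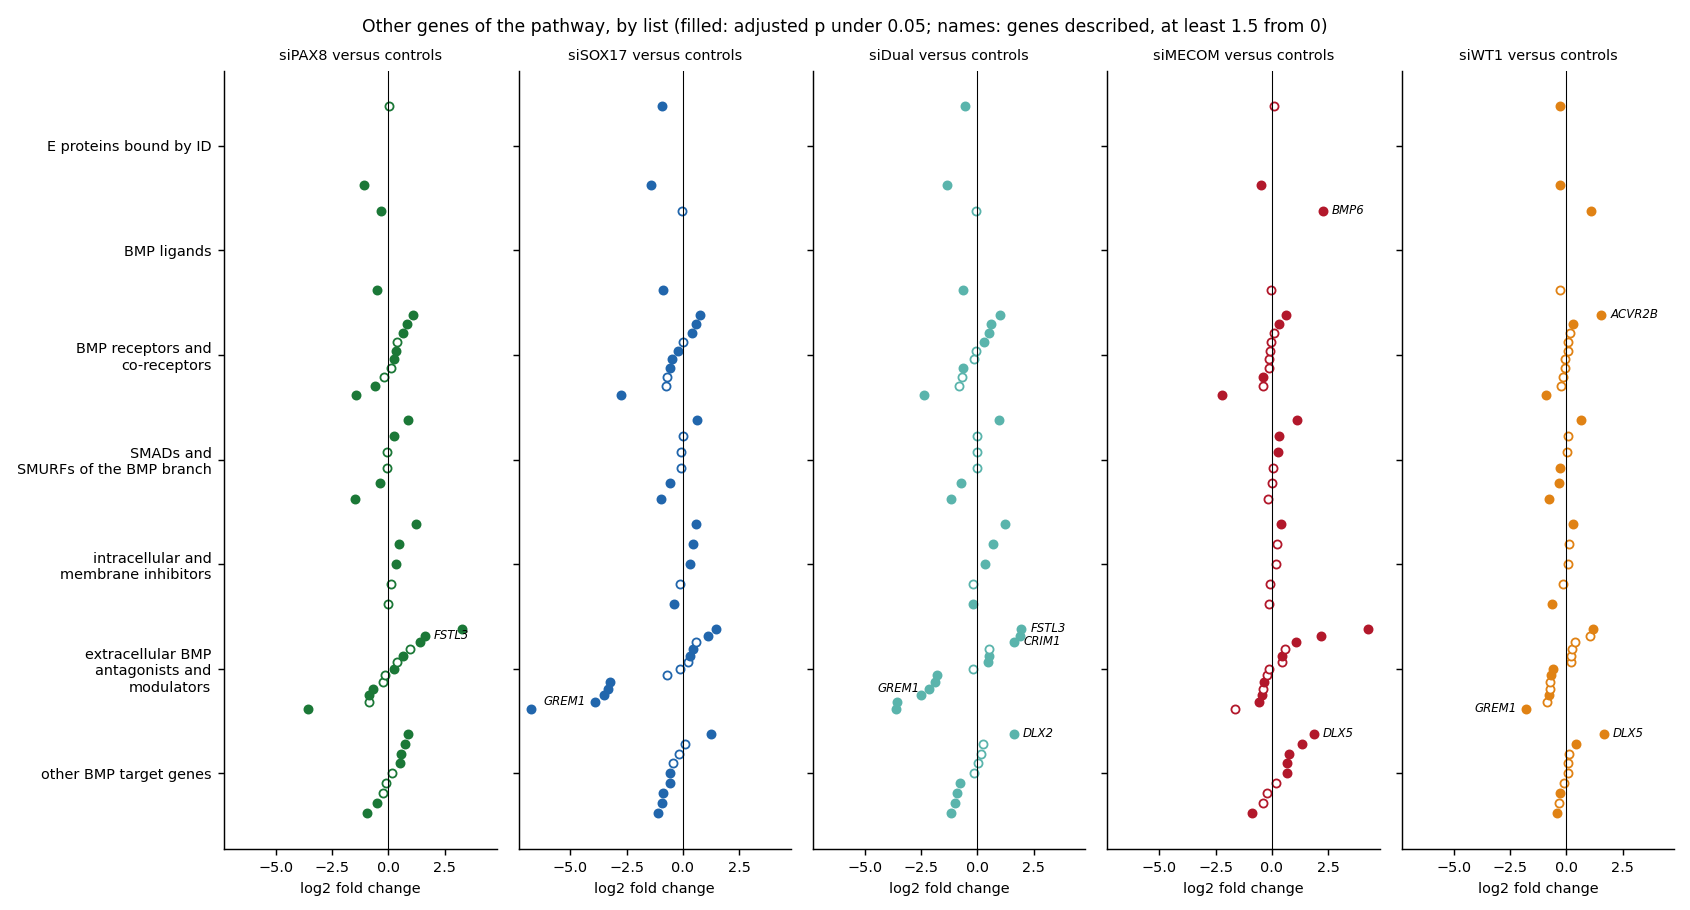
Log2 fold change against the controls (horizontal axis) of the 47 tested pathway genes outside the 9 members, by list (rows, points spread vertically for display); filled points have an adjusted p under 0.05, and names mark described genes at least 1.5 from 0. Unlabelled points at least 1.5 from 0 are genes with a mean log2 CPM under 1. BMP6 stands out to the right in siMECOM and GREM1 to the left in siSOX17.

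The members' patterns over the 7 groups were compared by the root-mean-square difference of their centred group means on the log2 CPM scale, as a description. The closest pair was ID2 and BMP4 (0.311), followed by ID1 and ID2 (0.328) and ID1 and SMAD6 (0.338), and the farthest was ID2 and BAMBI (1.17). ID3 was 0.594 from ID2 and 0.646 from ID1. Among the ID genes the differences ranged from 0.328 to 0.730, and BMP4 and SMAD6 were nearer to ID2 and ID1 than ID3 and ID4 were.

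Among 11911 other protein-coding genes, the 3 most like each member called in at least 3 knockdowns were found the same way. For ID1 they were FILIP1 (0.0943), HELZ2 (0.146) and C8orf34 (0.224), and for ID2 PREX1 (0.219), CACNG4 (0.273) and UST (0.293). FILIP1 fell in siSOX17 (-0.92 ± 0.12) and siDual (-1.47 ± 0.12) and rose in siMECOM (0.66 ± 0.10). ID3 was nearest to EPM2A (0.188), SLC38A2 (0.209) and TOM1L2 (0.216). BMP4 was nearest to TENM3 (0.179), CACNG4 (0.221) and SLITRK5 (0.260), and CACNG4 was thus on the lists of both ID2 and BMP4. For BMP7 the nearest were PXK (0.127), ABCC1 (0.145) and NFKBID (0.160). For SMAD6 they were CYB5RL (0.0477), EIF1B (0.0893) and TTC21B (0.108), and CYB5RL in siSOX17 fell by 0.93 on the log2 scale, as SMAD6 did by 0.92. For BAMBI they were PEA15 (0.0728), SLC30A4 (0.0962) and ANO6 (0.106), and PEA15 rose in siPAX8 (0.99), siSOX17 (0.87) and siDual (1.32). Over the 14 single libraries instead of the group means, 17 of these 21 neighbours were again among the 3 nearest.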

How the data were processed

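RNA of 14 OVCAR4 libraries in 7 siRNA groups of 2 was sequenced with a BGI protocol, per the labels. The authors deposited raw read counts for each gene (whole numbers, build hg38), and the submitters' processing notes name STAR 2.5.1b and featureCounts 1.6.3. Annotation, strandedness and filters are not given in the sources used here. The table held 58219 genes, 57881 of them matched to GENCODE 29. A length column served only for TPM, which were not scaled by TMM. In siPAX8 mean TPM was lower than in the controls for ID2 (39.0 against 50.7) and SMAD6 (11.3 against 14.9). BMP4 was at 13.0 TPM against 13.6 in the controls, while ID3 (105.3 against 86.4) and BAMBI (20.4 against 12.6) stayed higher. Calls and fold changes rest on the TMM scale.

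In edgeR 4.0.16, filterByExpr kept 21032 genes (at a minimum count of 10 and a minimum total of 15), and libraries were scaled by TMM. A quasi-likelihood model with a coefficient per group was fitted over all 14 libraries (7 residual degrees of freedom, biological coefficient of variation 7.57%), and a gene was called at a Benjamini-Hochberg p, adjusted over every tested gene, under 0.05. Standard errors were derived from the log2 fold change and its F statistic, and intervals are 95%. Controls are the mean of siNT1 and siNT2. Additivity is siDual minus siPAX8 minus siSOX17 plus the controls, and 17 comparisons were made. The scripts were tested on simulated data. Alternatives included DESeq2 1.42.0.

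The members, the 8 pathway lists (71 genes) and the tests were chosen with earlier results of these data known. Per list and comparison, the naming rule took up to 2 called increases and 2 called decreases, ranked by size, among genes averaging 1 or more in log2 CPM, and fewer are described. Pattern likeness used log2 CPM (prior count 2). Promoter letters are from RefSeq (GRCh38.p14) and 3′ UTRs from GENCODE. Chi-square per degree of freedom between the libraries of a group was 10.1 to 19.8, above sampling noise in every group.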

Additional observations from a re-analysis of the deposited data

Results flagged for a closer look

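For ID2 and SMAD6 the response to the PAX8 pool with and without the SOX17 pool differed at the threshold in the test of additivity, and the call depended on single libraries. This count, 2 of 9 members, is near the 25.1% of all genes called in the same test. ID2 in siDual stood 0.57 ± 0.20 above the sum of its single log2 responses (adjusted p = 0.041), with -0.03 in siPAX8, -1.36 in siSOX17 and -0.82 in siDual. It kept its call in 17 of 23 alternative fits and was 0.30 (0.333) without siDual replicate 2. SMAD6 stood 0.38 ± 0.11 above its sum (adjusted p = 0.013), with -0.04 in siPAX8, -0.92 in siSOX17 and -0.57 in siDual. It lost its call without siPAX8 replicate 1 (0.35, 0.0578) or siSOX17 replicate 1 (0.34, 0.0609). Both siDual libraries lay above both siSOX17 libraries for ID2 (20.3 and 28.8 against 14.7 and 19.1 CPM) and for SMAD6 (32.8 and 33.4 against 25.5 and 26.7 CPM). PAX8 was at 35.5 CPM in siPAX8 and 51.7 in siDual, and SOX17 at 14.4 CPM in siSOX17 and 16.8 in siDual, and the part of these values in the difference was not tested. Of all genes 25.1% were called in this test, and the number of members called, 2 of 9, ran from 0 to 4 with 1 library left out.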

How the results depend on the processing

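Over 3298 refits of single members, 3132 kept direction and side of the threshold, 69 lost a call, 28 gained one and 69 changed sign, 1 of the last from a called value: BMP7 in siSOX17 was 0.0105 against siNT1 alone. With siNT1 alone as control, the sign also changed, without a call, for ID2 in siPAX8 (0.0169) and siWT1 (0.0133), BMP7 in siWT1 (0.155) and the additivity of ID1 (-0.0364) and BMP7 (-0.212). The difference of ID2 between siWT1 and siPAX8 (-0.00359) became 0.000953 with DESeq2 size factors, 0.000789 with DESeq2, 0.00426 without a filter, 0.0101 without mitochondrial genes and 0.00373 with only the groups compared. The BMP7 additivity (0.00327) became -0.00297 with DESeq2 size factors, -0.00297 with DESeq2, -0.00989 without a filter, -0.00523 at CPM of at least 1, -0.00665 without mitochondrial genes and -0.0037 with only the groups compared.

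Leaving out 1 library at a time, the values that changed sign ranged as follows on the log2 scale, none of them from a called value. For siNT1 minus siNT2 BAMBI ranged from -0.191 to 0.102, BMP2 from -0.149 to 0.31, ID2 from -0.23 to 0.028, ID3 from -0.104 to 0.0753, ID4 from -0.076 to 0.0673 and SMAD6 from -0.0454 to 0.0212. In siWT1 BAMBI ranged from -0.0539 to 0.25, BMP2 from -1.02 to 0.0555, BMP7 from -0.139 to 0.0113, ID2 from -0.166 to 0.0846, ID3 from -0.229 to 0.221 and SMAD6 from -0.0222 to 0.156. In siPAX8 ID2 ranged from -0.163 to 0.088 and ID4 from -0.0368 to 0.0438, in siDual ID4 from -0.0621 to 0.0316, and in siMECOM BMP2 from -0.0331 to 0.196. For siDual minus siPAX8 BMP2 ranged from -1.02 to 0.587, ID3 from -0.108 to 0.163 and ID4 from -0.0659 to 0.0273. BMP2 ranged from -1.55 to 0.0529 for siPAX8 minus siSOX17 and from -0.332 to 0.747 for siWT1 minus siSOX17, BMP4 from -0.156 to 0.13 for siDual minus siWT1, and for siWT1 minus siPAX8 ID1 from -0.026 to 0.158 and ID2 from -0.133 to 0.127. In the additivity test BMP2 ranged from -0.328 to 1.28, BMP7 from -0.0782 to 0.0864 and ID1 from -0.165 to 0.232.

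Members called between siNT1 and siNT2 rose from 0 to 1 with DESeq2 and without a filter, and all genes called from 63 to 153 and 232 (11 to 77 with a library left out). Members called in the additivity test went from 2 to 4 without a filter and with only the groups compared, to 1 with siNT1 alone, and to 0 to 4 with a library left out. All genes called numbered 2636 to 4220 for siDual against siPAX8, 1822 to 3355 for siDual against siSOX17 and 4096 to 7044 for siMECOM against the controls, with a library left out, the last lowest without siMECOM replicate 2. With the replicate number as a block, 1 member (BMP7) and 150 genes were called between siNT1 and siNT2 and 4 members in the additivity test. The labels do not say what a replicate number stands for. The correlation of deviations over 21 pairs of groups was -0.018 to 0.161 (median 0.072), over 0.1 in 7. Any part of a batch shared by libraries of the same number was not tested. The causes of these changes were not tested. BMP2 had 3 to 17 counts a library, too few for a close comparison.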
